A study of Arabidopsis thaliana with 9 samples.

Results

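The XTH genes of Arabidopsis thaliana encode xyloglucan endotransglucosylase/hydrolases, enzymes that remodel the cell wall. The family was taken as a list of 33 loci, XTH1 to XTH33, out of the 33518 genes in each deposited table, and no expression value enters that rule. All 33 loci were found in every table. Polyadenylated RNA of whole seedlings was sequenced in 3 genotypes and 3 treatments. The genotypes were aba2-1, which carries a point mutation in ABA2, an enzyme of abscisic acid (ABA) synthesis, p5cs1-4, a T-DNA line of P5CS1, whose enzyme opens the pathway to proline, and the wild type Col-0 (WT), and each mutant is represented by 1 allele. At 7 days of age, seedlings were transferred either to new plates at -0.25 MPa (control) or to plates infused with polyethylene glycol at a low water potential of -1.2 MPa (labelled stress), and both sets were harvested 96 h later. The third set was returned from -1.2 MPa plates to -0.25 MPa plates for 10 h (labelled release). Each of the 9 groups is a single library made from the mixed RNA of 3 experiments, so differences between libraries cannot be set against replicates.

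Xyloglucan is a branched glucan that coats and ties together the cellulose fibrils of the growing wall. An XTH enzyme cuts a xyloglucan chain and joins the cut end to another chain, which lets the wall yield or be reinforced without a loss of chains, or it passes the cut end to water and so shortens the chain. The family is known for its activity in expanding cells of hypocotyls, leaves and roots, and it is usually split into groups by sequence. Here XTH1 to XTH11 are called group 1, XTH12 to XTH26 group 2 and XTH27 to XTH33 group 3, which includes the branch of XTH31 and XTH32 that is known for hydrolase activity.

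Over the whole coding sequence (RefSeq annotation of TAIR10.1) the closest pairs were XTH12 and XTH13 with 89.4% identity, XTH18 and XTH19 with 87.6%, XTH18 and XTH20 with 85.6%, XTH17 and XTH18 with 85.6%, XTH19 and XTH20 with 83.0%, XTH17 and XTH19 with 80.8% and XTH15 and XTH16 with 80.5%. The deposited share of reads that map to several places was 0 for nearly every member in every library, with at most 0.000344 in XTH17 and XTH18 and a larger share in 1 member only, XTH21, which had few reads.

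Sequencing depth ran from 4898426 reads in the WT control to 18273148 reads in the p5cs1-4 control, and intervals cover counting error only. The treatment labels are not borne out by known marker genes, and the names of the deposited tables end in R for the libraries labelled stress and in S for those labelled release. These marker genes were chosen with earlier results of these data known. In WT, RAB18, an ABA- and dehydration-induced gene, had a level of 5600 in the library labelled release, 15.8 in labelled stress and 35.6 in the control, and PRODH1, an enzyme of proline breakdown that is usually high after rehydration, had 13.7, 101 and 100.2 in the same libraries. In p5cs1-4, RAB18 stood at 5405, 92.0 and 25.3, and in aba2-1 at 74.9, 5.83 and 285, in the order labelled release, labelled stress and control. P5CS1 itself had levels of 416, 60.3 and 43.4 in p5cs1-4, against 1358, 25.7 and 67.6 in WT, in the same order. Where these reads lie relative to the insertion cannot be read from gene counts. The aba2-1 control was above the WT control in RAB18, in P5CS1 (220) and in 2 further low water potential markers. These were RD29B with 20.8 against 4.15 and LEA7 with 45.8 against 4.75. PRODH1 was higher there too, at 140. Every aba2-1 fold against control has this library as its base. Each library is therefore named by its label throughout, and directions are directions between libraries so labelled. Markers of both organs were read: all 9 shoot markers in every library, and 14 root markers with EXPA7 and SMB at 0 in the WT control and SMB at 0 in WT labelled stress.

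A level here is an RPKM value computed with scaled library sizes (normalised RPKM), which can be compared between genes and libraries. Of the 33 members, 24 reached the floor of 5 CPM (read counts scaled to library size) in any library and 13 did so in every library. XTH1 and XTH3 had no read in any library, which allows at most 3 counts in each, and XTH2 had 1 read. The other members under the floor everywhere were XTH10, XTH12, XTH13, XTH21, XTH26 and XTH29, whose levels lay between 0 and 4.03. XTH12, XTH13 and XTH26 are genes known mainly from roots, and XTH21 from primary root growth. The rest of the account concerns the other 24.

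**Figure D1:**
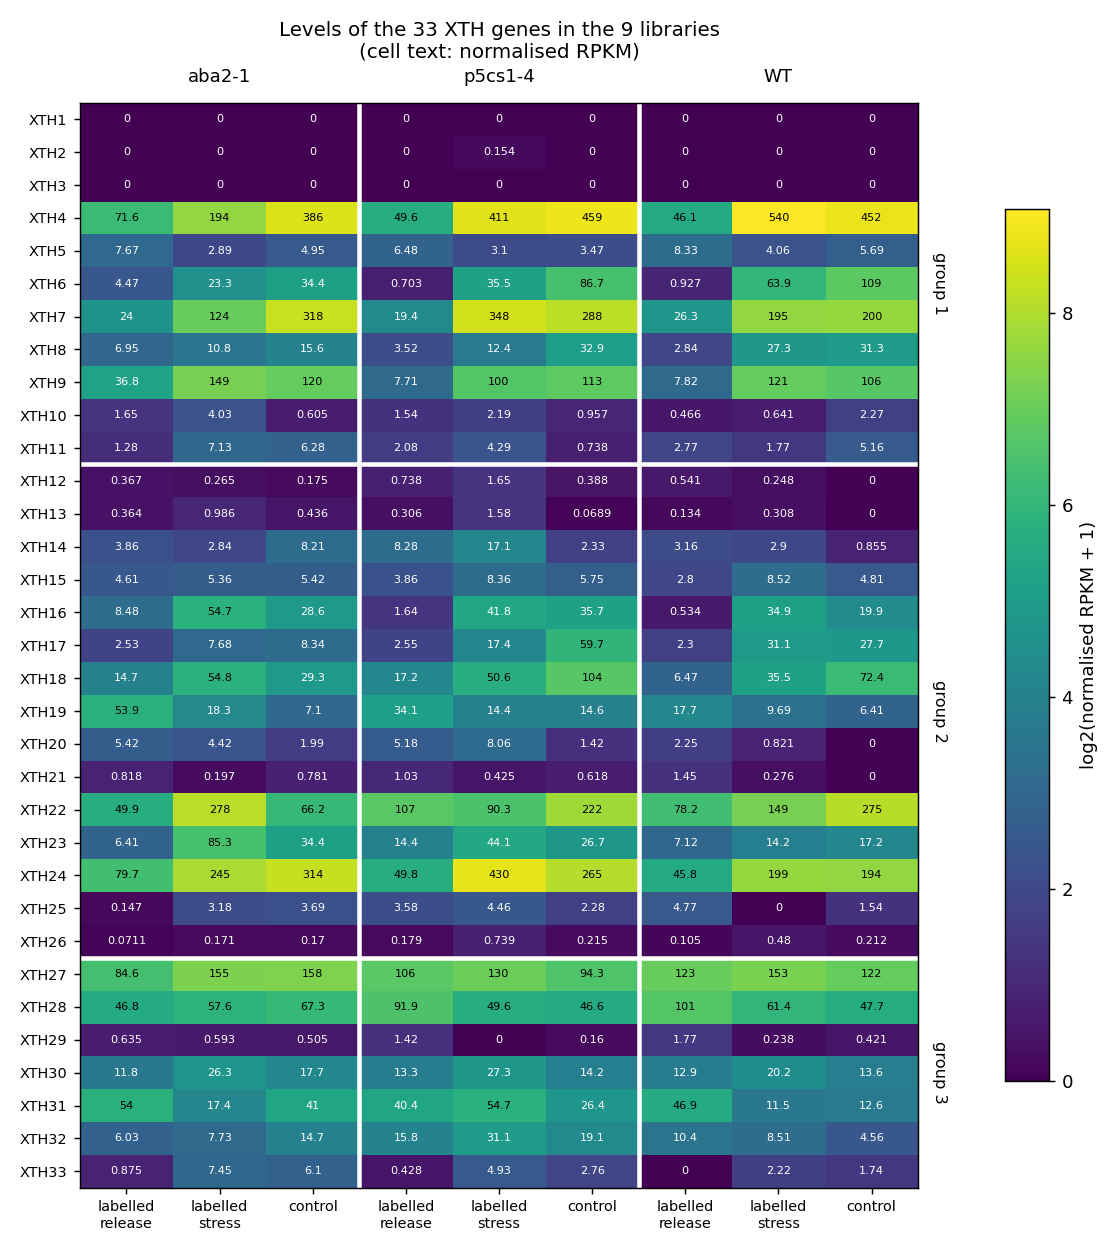
Levels (normalised RPKM, printed in each cell) of the 33 XTH genes in the 9 libraries, coloured on a log2(level + 1) scale, with the genotypes in blocks and the groups separated by white lines. XTH4, XTH7, XTH22, XTH24 and XTH27 hold the highest levels, and the labelled release columns are darker for XTH4, XTH6, XTH7, XTH9, XTH16 and XTH24 in every genotype.

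The family as a whole was lower in the libraries labelled release. Its summed level was 590.4 in labelled release, 1548 in labelled stress and 1700.1 in the control of aba2-1. In p5cs1-4 the sums were 610.5, 1945 and 1929, and in WT 564.8, 1698 and 1733, in the same order. The 3 labelled release libraries thus lay close together and below all 6 others. As a share of all reads, XTH genes took 0.0696% to 0.0811% in labelled release and 0.178% to 0.247% elsewhere.

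The makeup of the sum differed too. Group 3 made up 34.7%, 44.1% and 52.4% of it in labelled release of aba2-1, p5cs1-4 and WT, against 10.6% to 18.0% in the other 6 libraries. Group 1 made up 26.1%, 14.9% and 16.9% in labelled release, against 33.3% to 56.2% in the others. The summed level of group 3 itself was 204.7, 272.0 and 305.5 in labelled release, labelled stress and control of aba2-1. It was 269.3, 297.5 and 203.6 in p5cs1-4 and 296.0, 256.6 and 202.6 in WT, so the larger share was not a higher level in every genotype. In the WT control the leading members were XTH4 with 26.1% and XTH22 with 15.8% of the sum, and in WT labelled release they were XTH27 with 21.8% and XTH28 with 17.8%. XTH27 led in labelled release of aba2-1 as well, with 14.3%, while XTH22 led in that of p5cs1-4 with 17.6%, just above XTH27 with 17.4%. XTH27 is known from the development of leaf veins, and XTH28 from growth of the stamen filament.

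**Figure D2:**
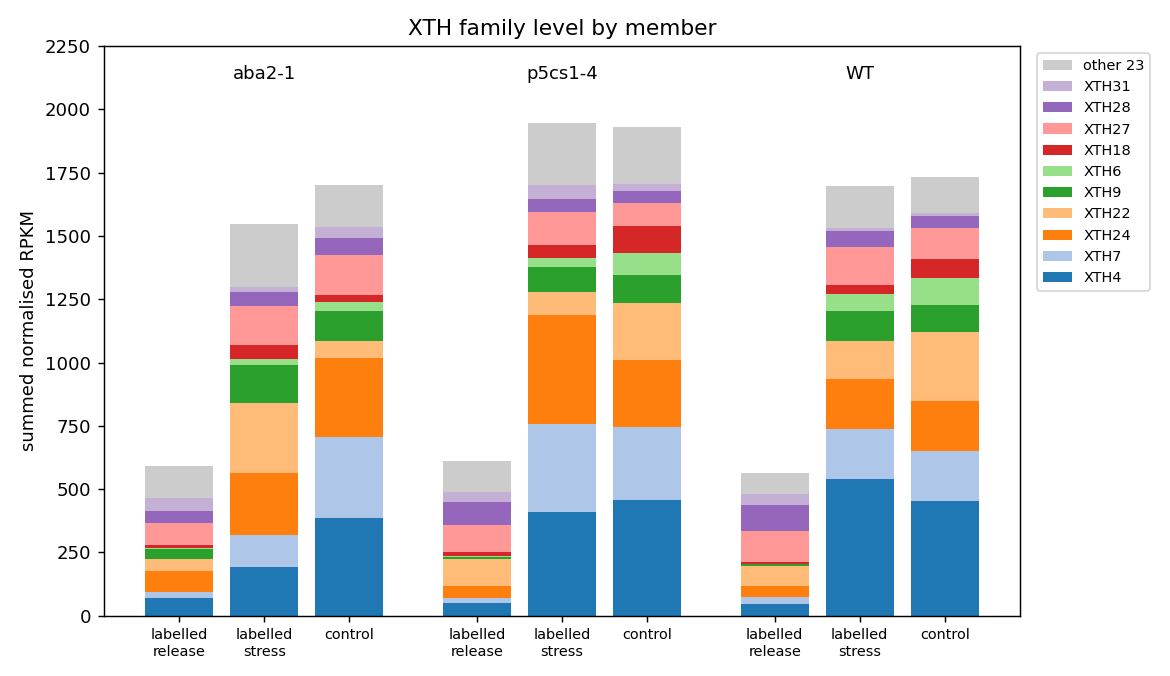
Summed level of the XTH family (normalised RPKM) in each of the 9 libraries, stacked by member, with 10 members named and the other 23 in grey. The bars of the labelled release libraries reach 590.4, 610.5 and 564.8, and the segments of XTH4, XTH7 and XTH24 are the ones that are much shorter there.

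Setting labelled release against control, members were counted where the log2 ratio of CPM + 1 was at least 1 in size and either library held at least 5 CPM. In aba2-1, 14 of 23 members passed, 2 higher and 12 lower, against 10.2% of all genes, 4.56% higher and 5.62% lower. In p5cs1-4, 13 of 21 passed, 3 higher and 10 lower, against 20.2% of all genes, 8.4% higher and 11.8% lower. In WT, 16 of 21 passed, 5 higher and 11 lower, against 26.8% of all genes, 12.7% higher and 14% lower. Among those 5 is XTH25, which reached the floor in WT labelled release alone, at 5.05 CPM, and so could count only as higher. The median log2 ratio of the members was -1.08 in aba2-1, -0.85 in p5cs1-4 and -1.17 in WT, and that of all genes was between -0.02 and 0.01.

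The same 8 members were at least 2-fold lower in labelled release in all 3 genotypes, out of 19 that could be compared in all 3, namely XTH4, XTH6, XTH7, XTH8 and XTH9 of group 1 and XTH16, XTH17 and XTH24 of group 2. Of all genes, 1.63% were. XTH19 alone was at least 2-fold higher in all 3, as were 0.794% of all genes. The 8 members together had a summed level of 234.5 in labelled release and 1225 in the control of aba2-1, 135.0 and 1340 in p5cs1-4, and 132.5 and 1140 in WT. The other 25 members summed to 355.9 and 475.3 in aba2-1, 475.5 and 588.7 in p5cs1-4, and 432.2 and 593.9 in WT, again labelled release before control.

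Markers of shoot cells moved with this comparison. In labelled release over control, 2 of 9 shoot markers were at least 2-fold lower in aba2-1 and 8 of 9 in both p5cs1-4 and WT, and their summed level was 7303, 4885 and 6778 in labelled release, against 12136, 20390 and 23190 in the controls, with none at 0. Of the root markers past the floor, 2 of 8 were lower in aba2-1, while 5 of 11 were higher in p5cs1-4 and 2 of 7 in WT, and the root sum was 1431, 2299 and 1757, against 2268, 1845 and 1267, most of it from PYK10. In whole seedlings fewer cells of a type and less RNA per cell cannot be told apart, and the part of organ makeup in the XTH values was not tested.

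All 9 libraries entered 1 edgeR fit with additive terms for genotype and for treatment, in which the 3 genotypes stand in for replicates of a treatment (Benjamini-Hochberg adjusted p under 0.05 over 19600 genes). For labelled release against control, 11 of 25 members tested were called, 10 lower and 1 higher, against 5.73% of all genes, of which 3.94% were lower and 1.79% higher. By group, 5 of 8 members of group 1 fell, 4 of 11 of group 2 fell and 1 rose, and 1 of 6 of group 3 fell. The median log2 fold change was -2.72 in group 1, -1.21 in group 2 and -0.22 in group 3, against 0.02 over all genes. These calls rest on WT and p5cs1-4: with the libraries of either left out, no member and no other gene was called in labelled release against control or labelled stress, although the 11 members were each still at an unadjusted p under 0.05 against control. Those were among 13 members at that p without WT and 13 without p5cs1-4, beside 16% and 12% of all genes. Without aba2-1, 15 members were called, beside 19.6% of all genes, and with DESeq2 13, beside 16.8%.

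In group 1 the largest fold change in the additive model belonged to XTH6 (AT5G65730, chromosome 5, 26298728 to 26300529, plus strand, TAIR10.1). Its level was 4.47 in labelled release, 23.3 in labelled stress and 34.4 in the control of aba2-1. It was 0.70, 35.5 and 86.7 in p5cs1-4 and 0.93, 63.9 and 109 in WT. No labelled release value reached any value of the other 6 libraries. Against control, XTH6 was 7.69-fold lower in aba2-1 (95% counting interval 5.78 to 10.3), 123-fold lower in p5cs1-4 (70.4 to 239) and 117-fold lower in WT (61.4 to 258), with only 12 and 9 reads behind the labelled release values of p5cs1-4 and WT. In the additive model it fell by 5.14 on the log2 scale (SE 0.86, adjusted p = 0.027).

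XTH7 (AT4G37800, chromosome 4, 17775370 to 17777445, minus strand), the closest relative of XTH6 here with 72.3% coding identity, was expressed at a higher level. It stood at 24.0 in labelled release, 124 in labelled stress and 318 in the control of aba2-1, at 19.4, 348 and 288 in p5cs1-4 and at 26.3, 195 and 200.5 in WT. The fold against control was 13.3 lower in aba2-1 (11.8 to 14.9), 14.8 lower in p5cs1-4 (13.3 to 16.6) and 7.63 lower in WT (6.65 to 8.78). XTH7 had the smallest adjusted p of the family, with a fall of 3.51 on the log2 scale (SE 0.40, adjusted p = 0.015, edgeR). In labelled stress of aba2-1 it was already 2.57-fold below the control (2.40 to 2.75), which was not so in p5cs1-4 or WT.

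XTH4 (AT2G06850, chromosome 2, 2763449 to 2765743, plus strand), a gene known from expanding stems and wood formation, was the most abundant member in all 3 controls. Its level was 71.6 in labelled release, 194 in labelled stress and 386 in the control of aba2-1, 49.6, 411 and 459 in p5cs1-4, and 46.1, 540 and 452 in WT. Labelled release was lowest in each genotype, and the 3 values of labelled release did not overlap the other 6. XTH4 was 5.39-fold lower in labelled release than in control in aba2-1 (5.02 to 5.79), 9.25-fold in p5cs1-4 (8.64 to 9.91) and 9.81-fold in WT (8.89 to 10.8). Its fall in the model was 2.92 (log2, SE 0.39, adjusted p = 0.018, edgeR).

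XTH9 (AT4G03210, chromosome 4, 1415617 to 1417444, plus strand), known from shoot apices and from wood together with XTH4, had levels of 36.8, 149 and 120 in labelled release, labelled stress and control of aba2-1, 7.71, 100.2 and 113 in p5cs1-4, and 7.82, 121 and 106 in WT. It was 3.26-fold lower in labelled release than in control in aba2-1 (2.91 to 3.66), 14.7-fold in p5cs1-4 (12.3 to 17.7) and 13.5-fold in WT (10.6 to 17.5), and it fell in the additive model (log2 fold change -3.02, SE 0.46, adjusted p = 0.022). XTH8 (AT1G11545) was likewise lowest in labelled release of each genotype, with 6.95, 10.8 and 15.6 in aba2-1, 3.52, 12.4 and 32.9 in p5cs1-4 and 2.84, 27.3 and 31.3 in WT, and it fell too (log2 fold change -2.51, SE 0.53, adjusted p = 0.043). Only XTH5 of group 1 went the other way. It stood between 6.48 and 8.33 in labelled release and between 2.89 and 5.69 in the other 6 libraries, without overlap, but missed the threshold against control (log2 fold change 0.70, SE 0.24, adjusted p = 0.12). XTH11 showed no such order, with levels from 0.74 to 7.13.

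**Figure D3:**
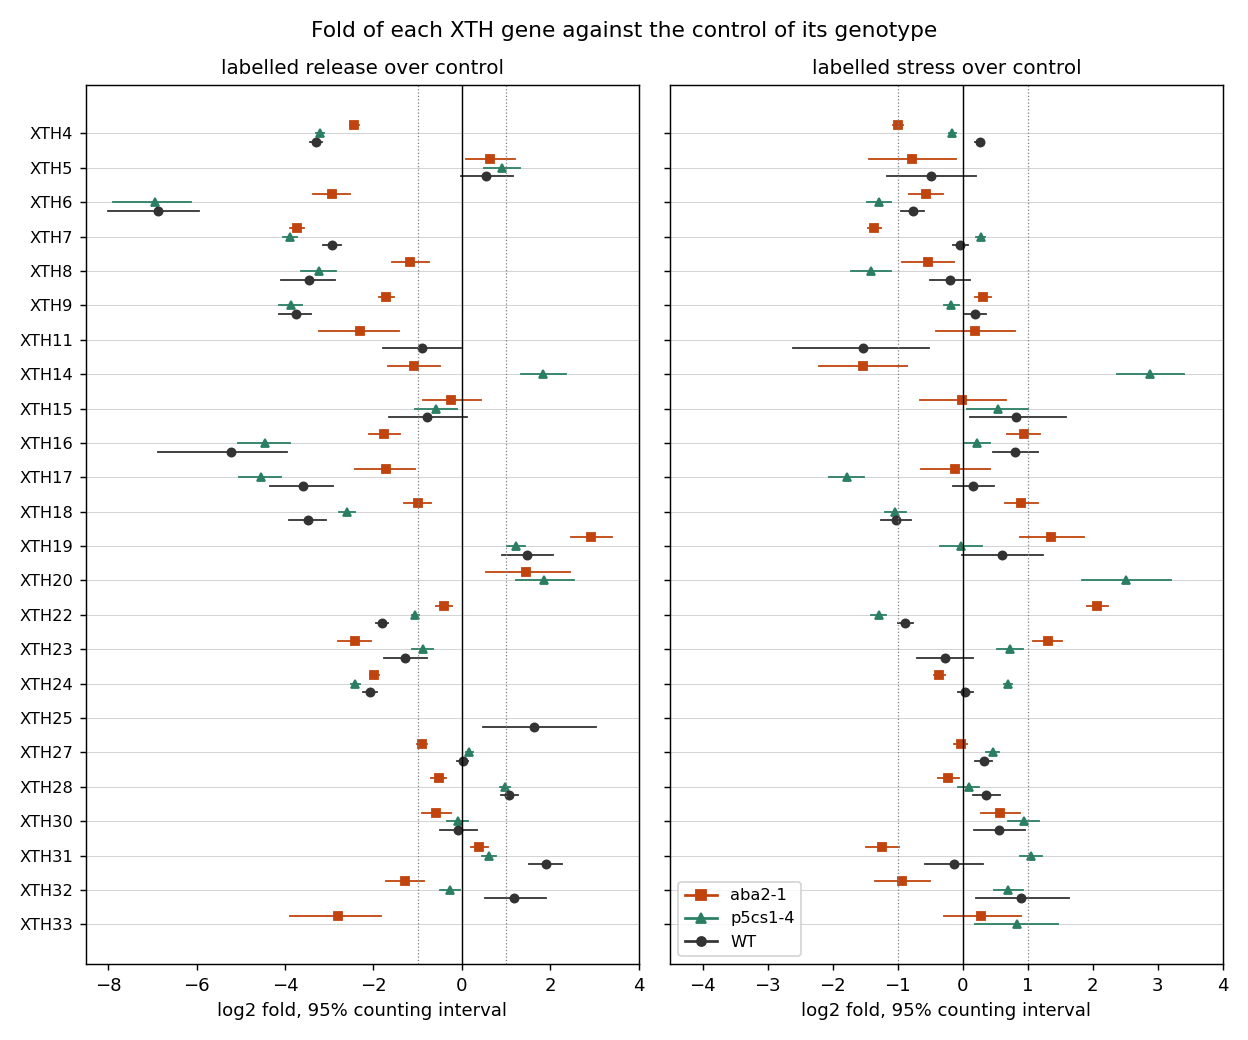
Log2 fold of XTH genes in labelled release over control (left) and labelled stress over control (right) in aba2-1, p5cs1-4 and WT, with 95% counting intervals, for members with at least 5 CPM in either library; dotted lines mark 2-fold. In the left panel XTH4, XTH6, XTH7, XTH8, XTH9, XTH16, XTH17 and XTH24 lie left of the lower line in every genotype and XTH19 lies right of the upper line.

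In group 2, XTH16 (AT3G23730, chromosome 3, 8550037 to 8551403, plus strand), known with XTH15 from petiole elongation in shade, was near the bottom of the scale in labelled release. Its level was 8.48 in labelled release, 54.7 in labelled stress and 28.6 in the control of aba2-1, 1.64, 41.8 and 35.7 in p5cs1-4, and 0.53, 34.9 and 19.9 in WT. The WT value in labelled release rests on 5 reads. Against control XTH16 was 3.37-fold lower in aba2-1 (2.64 to 4.31), 21.8-fold lower in p5cs1-4 (14.8 to 33.3) and 37.3-fold lower in WT (15.4 to 118), and it fell in the model (log2 fold change -3.37, SE 0.63, adjusted p = 0.034). Its near relative XTH15 ranged from 2.80 to 8.52, with its 3 labelled release values below the other 6, though not with RPKM as deposited.

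XTH24 (AT4G30270), named MERI5 for its meristem expression, was among the most abundant members of group 2. It had levels of 79.7, 245 and 314 in labelled release, labelled stress and control of aba2-1, 49.8, 429.8 and 265 in p5cs1-4, and 45.8, 199 and 194 in WT. Labelled release was lowest in each genotype. The fall in the additive model was 2.13 on the log2 scale (SE 0.28, adjusted p = 0.018, edgeR), the smallest SE among the 10 members that fell.

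XTH17 (AT1G65310), XTH18 (AT4G30280), XTH19 (AT4G30290) and XTH20 (AT5G48070) form the closest set of sequences in group 2 and are known from root tissues. XTH17 had levels of 2.53, 7.68 and 8.34 in labelled release, labelled stress and control of aba2-1, 2.55, 17.4 and 59.7 in p5cs1-4, and 2.30, 31.1 and 27.7 in WT. XTH18 had 14.7, 54.8 and 29.3 in aba2-1, 17.2, 50.6 and 104 in p5cs1-4, and 6.47, 35.5 and 72.4 in WT. For both genes the labelled release values lay below all others. Against control, XTH17 was 3.30-fold lower in aba2-1 (2.08 to 5.30), 23.4-fold in p5cs1-4 (17.1 to 32.8) and 12.1-fold in WT (7.56 to 20.2). XTH18 was 1.99-fold lower in aba2-1 (1.61 to 2.46), 6.04-fold in p5cs1-4 (5.32 to 6.88) and 11.2-fold in WT (8.47 to 15.0). Both fell in the additive model, by 3.35 (SE 0.60, adjusted p = 0.030) and 2.43 (SE 0.46, adjusted p = 0.035) on the log2 scale in edgeR.

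XTH19, known from stem wound repair as well as roots, went the opposite way. Its level was 53.9 in labelled release, 18.3 in labelled stress and 7.10 in the control of aba2-1, 34.1, 14.4 and 14.6 in p5cs1-4, and 17.7, 9.69 and 6.41 in WT. Labelled release was highest in each genotype, but the WT value was just below the 18.3 of aba2-1 labelled stress, so that the libraries overlapped across genotypes. It was 7.59-fold higher in labelled release than in control in aba2-1 (5.58 to 10.6), 2.34-fold in p5cs1-4 (2.02 to 2.70) and 2.77-fold in WT (1.88 to 4.20), and it was the 1 member that rose in the model (log2 fold change 1.82, SE 0.34, adjusted p = 0.033). XTH20 was low throughout, at 5.42, 4.42 and 1.99 in aba2-1, 5.18, 8.06 and 1.42 in p5cs1-4 and 2.25, 0.82 and 0 in WT, and missed the threshold (log2 fold change 2.20, SE 0.65, adjusted p = 0.082).

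XTH22 (AT5G57560) is TCH4, the touch-induced member, and its levels followed no common order over the 3 treatments. They were 49.9, 278 and 66.2 in labelled release, labelled stress and control of aba2-1, 107, 90.3 and 222 in p5cs1-4, and 78.2, 149 and 275 in WT. Labelled release was below control in each genotype, at least 2-fold in p5cs1-4 and WT. XTH23 had 6.41, 85.3 and 34.4 in aba2-1, 14.4, 44.1 and 26.7 in p5cs1-4, and 7.12, 14.2 and 17.2 in WT, so that labelled release was lowest in each genotype. Neither passed the threshold against control in edgeR (XTH22 adjusted p = 0.24, XTH23 adjusted p = 0.11). XTH14, known from root hairs, stood between 0.86 and 17.1 and XTH25 between 0 and 4.77.

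In group 3 the most abundant members were XTH27 (AT2G01850) and XTH28 (AT1G14720). XTH27 had 84.6, 155 and 158 in labelled release, labelled stress and control of aba2-1, 106, 129.9 and 94.3 in p5cs1-4, and 123, 153 and 122 in WT. XTH28 had 46.8, 57.6 and 67.3 in aba2-1, 91.9, 49.6 and 46.6 in p5cs1-4, and 101, 61.4 and 47.7 in WT. XTH28 was thus highest in labelled release of p5cs1-4 and WT and lowest there in aba2-1. Against control it was 2.11-fold higher in WT (1.85 to 2.42), 1.97-fold higher in p5cs1-4 (1.83 to 2.13) and 1.44-fold lower in aba2-1 (1.28 to 1.61). Neither gene passed the threshold in the additive model (XTH27 adjusted p = 0.51, XTH28 adjusted p = 0.29, edgeR).

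In the hydrolase branch, XTH31 (AT3G44990, chromosome 3, 16446935 to 16448844, minus strand) had levels of 54.0, 17.4 and 41.0 in labelled release, labelled stress and control of aba2-1, 40.4, 54.7 and 26.4 in p5cs1-4, and 46.9, 11.5 and 12.6 in WT. It was 3.72-fold higher in labelled release than in control in WT (2.89 to 4.85), 1.53-fold in p5cs1-4 (1.37 to 1.71) and 1.32-fold in aba2-1 (1.15 to 1.51), with an adjusted p of 0.25 in edgeR. XTH32 (AT2G36870, chromosome 2, 15472607 to 15474828, minus strand) had 6.03, 7.73 and 14.7 in aba2-1, 15.8, 31.1 and 19.1 in p5cs1-4, and 10.4, 8.51 and 4.56 in WT. It was 2.44-fold lower in labelled release than in control in aba2-1 (1.81 to 3.30), 1.21-fold lower in p5cs1-4 (1.03 to 1.41) and 2.27-fold higher in WT (1.44 to 3.74).

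XTH33 (AT1G10550, chromosome 1, 3479066 to 3481041, minus strand), a member known at the plasma membrane, was the 1 gene of group 3 that fell in the additive model (log2 fold change -3.06, SE 0.58, adjusted p = 0.035). It was a low gene, with 12, 85 and 35 reads in labelled release, labelled stress and control of aba2-1, 7, 39 and 50 in p5cs1-4 and 0, 18 and 8 in WT. The levels were 0.88, 7.45 and 6.10 in aba2-1, 0.43, 4.93 and 2.76 in p5cs1-4, and 0, 2.22 and 1.74 in WT, so the labelled release values lay below the other 6. In aba2-1, the 1 genotype in which it passed the floor in either of these libraries, it was 6.97-fold lower in labelled release than in control (3.53 to 14.7). XTH30 stood at 11.8, 13.3 and 12.9 in labelled release of aba2-1, p5cs1-4 and WT, just below the range of 13.6 to 27.3 of the other 6 libraries. With RPKM as deposited these libraries overlapped for XTH30.

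Counting over all 24 members past the floor, 12 had all 3 labelled release values below the other 6 libraries, as had 10.2% of all genes, and 1, XTH5, had them above, as had 9.27% of all genes. With RPKM as deposited, XTH15 and XTH30 overlapped. XTH15 then stood at 4.97 in aba2-1 labelled release and 4.07 in the WT control. XTH30 stood at 13.3 in p5cs1-4 labelled release and 11.5 in the WT control.

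Labelled stress differed less from control. In aba2-1, 6 of 22 members passed the 2-fold threshold, 3 higher and 3 lower, against 8.07% of all genes, 4.5% higher and 3.57% lower. In p5cs1-4, 8 of 21 passed, 3 higher and 5 lower, against 9.87% of all genes, 4.03% higher and 5.84% lower. In WT, 2 of 20 passed, both lower, against 8.54% of all genes, 4.45% higher and 4.09% lower. With RPKM as deposited the split was 5 higher and 3 lower in aba2-1 and 4 and 4 in p5cs1-4, and no member passed in WT. The medians were -0.07, 0.27 and 0.10 on the log2 scale. No member passed in the same direction in all 3 genotypes. In aba2-1, XTH22, XTH23 and XTH19 were higher and XTH7, XTH14 and XTH31 lower. In p5cs1-4, XTH14, XTH20 and XTH31 were higher and XTH6, XTH8, XTH17, XTH18 and XTH22 lower, and in WT XTH11 and XTH18 were lower. The WT call of XTH11 rests on 14 reads in labelled stress and 23 in control, and only the control passed the floor, at 5.36 CPM. That of XTH18, at 37.2 and 75.9 CPM, lay close to the threshold.

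XTH22, XTH14 and XTH31 passed the threshold in opposite directions in the mutants. The log2 ratio of XTH22 in labelled stress over control was 2.05 in aba2-1 and -1.29 in p5cs1-4, against -0.88 in WT. That of XTH14 was -1.28 in aba2-1 and 2.47 in p5cs1-4, and that of XTH31 was -1.20 in aba2-1 and 1.03 in p5cs1-4, against -0.13 in WT. These differences were not tested, as each is between single libraries. Root markers moved in the same p5cs1-4 libraries: 5 of 11 past the floor were higher in labelled stress than in control (EXPA7, LRX1, PRP3, MYB36 and COBL9), EXPA7 with levels of 11.4 and 0.51, and the part of this in the values of XTH14 and XTH20 was not tested. In the additive model no member was called for labelled stress against control by edgeR or by DESeq2, with 2 of 25 at an unadjusted p under 0.05 in each, beside 8.25% of all genes in edgeR and 8.28% in DESeq2. At the adjusted threshold edgeR called 0% of all genes and DESeq2 0.342%.

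Against labelled stress, labelled release gave a picture that shares its libraries with the one above. In aba2-1, 3 members were higher and 13 lower of 22, against 3.79% and 5.64% of all genes (9.43% either way). In p5cs1-4, 1 was higher and 11 lower of 22, against 5.98% and 6.21% of all genes (12.2% either way). In WT, 2 were higher and 10 lower of 20, against 10.3% and 11.6% of all genes (21.9% either way). Shoot markers moved with this comparison in WT, where 7 of 9 were at least 2-fold lower, and in p5cs1-4, where 3 of 9 were, but in aba2-1 none of the 9 was. Of the root markers past the floor, 2 of 8 were lower in aba2-1 and 2 of 11 in p5cs1-4, LRX1 and PRP3 in both, and 1 of 8 was higher in WT, ESB1, and the part of these markers was not tested. The members at least 2-fold lower in all 3 genotypes were XTH4, XTH6, XTH7, XTH9, XTH16, XTH17, XTH18 and XTH24, 8 of 19, against 1.45% of all genes. In the additive model 8 members fell (XTH4, XTH6, XTH7, XTH9, XTH16, XTH24, XTH30 and XTH33) and XTH5 rose (log2 fold change 1.17, SE 0.25, adjusted p = 0.0497), against 3.72% of all genes either way, 1.54% higher and 2.19% lower. The call of XTH5 was lost with median-of-ratios scaling, with no filter on low counts (adjusted p up to 0.054 over the alternatives with all 9 libraries) and without aba2-1, and that of XTH30 without aba2-1. XTH25, at 44 reads in WT labelled release and 0 in WT labelled stress, was at least 12.8-fold higher, with 3 counts put in place of the 0. It reached the floor in WT labelled release alone, at 5.05 CPM, so it could enter this pair only through the library where it is high.

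The fall in labelled release was smaller in aba2-1 than in WT for most of the 8 lowered members, as it was for most genes lowered by the same rule. The log2 fold against control in aba2-1 minus that in WT was positive in 7 of the 8, with a median of 1.96 and a range of -0.80 to 3.93. Of all 256 genes lower by the same rule in the 3 genotypes, members included, it was positive in 77.7%, with a median of 0.57. The difference was 3.93 for XTH6 (approximate counting interval 2.90 to 4.96), 3.47 for XTH16 (2.13 to 4.81), 2.29 for XTH8 (1.58 to 3.0) and 2.05 for XTH9 (1.66 to 2.44). WT labelled release held only 9 reads of XTH6 and 5 of XTH16, where the approximation is rough. For XTH24 it was 0.11 (-0.08 to 0.29), and for XTH7, the exception, -0.80 (-1.05 to -0.54). In p5cs1-4 the same difference was positive for 3 and negative for 5 members, with a median of -0.09 and a range of -0.96 to 0.78, and over the 256 genes it was positive in 44.1%, with a median of -0.07. No test can be had for these differences with 1 library a group. The shoot marker sum in labelled release over control was also closer to the control in aba2-1 (7303 and 12136) than in WT (6778 and 23190), and its part was not tested. The aba2-1 control also had higher levels of RAB18, RD29B, LEA7 and P5CS1 than the WT control, and the part of this was not tested.

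Within labelled release, the mutants were set against WT directly. In aba2-1, 8 of 18 members passed the 2-fold threshold, 6 higher and 2 lower, against 10.1% of all genes, 4.8% higher and 5.27% lower, and with RPKM as deposited 6 were higher and none lower. XTH16 was 15.9-fold higher than in WT (6.61 to 49.8), XTH9 4.70-fold (3.69 to 6.08), XTH19 3.04-fold (2.58 to 3.61) and XTH18 2.28-fold (1.69 to 3.10), with XTH8 and XTH20 also higher, while XTH28 was 2.15-fold lower (1.97 to 2.36). XTH25 was lower too, at 2 reads in aba2-1 and 44 in WT, and it passed the floor through the WT library alone. In p5cs1-4 only XTH18 and XTH14 passed, both higher, 2 of 17 members against 3.13% of all genes, 1.8% higher and 1.33% lower, XTH18 being 2.66-fold higher (2.00 to 3.59).

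In labelled stress, 7 of 21 members passed between aba2-1 and WT, 3 higher and 4 lower, against 13.1% of all genes, 6.65% higher and 6.49% lower (5 and 4 with RPKM as deposited). XTH23 stood at 85.3 in aba2-1 and 14.2 in WT, and XTH4 was 2.79-fold lower in aba2-1 (2.65 to 2.92). XTH11 and XTH33 were higher, and XTH6, XTH8 and XTH17 lower. In the same pair 6 of 9 shoot markers were lower, with shoot sums of 7751 in aba2-1 and 19766 in WT, and their part was not tested. In p5cs1-4, 7 of 22 passed, 6 higher and 1 lower, against 12.5% of all genes, 5.94% higher and 6.53% lower (8 and 0 with RPKM as deposited). XTH31 was 4.77-fold higher than in WT (3.88 to 5.91), XTH32 3.66-fold (2.83 to 4.78), and XTH14, XTH20, XTH23 and XTH24 were higher as well, with XTH8 lower. Of the root markers 4 of 11 were higher in this comparison and 3 of 9 shoot markers lower, with root sums of 2961 in p5cs1-4 and 2069 in WT and shoot sums of 10633 and 19766, and their part was not tested.

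In the controls, 8 of 22 members passed between aba2-1 and WT, 4 in each direction, against 17.6% of all genes, 8.13% higher and 9.48% lower. XTH31 was 3.24-fold higher in aba2-1 (2.49 to 4.29) and XTH32 3.23-fold (2.03 to 5.35), with XTH14 and XTH33 also higher. XTH6 was 3.16-fold lower (2.69 to 3.74), XTH17 3.33-fold (2.36 to 4.76) and XTH18 2.47-fold (2.04 to 3.0), and XTH22 stood at 66.2 in aba2-1 and 275 in WT. Root markers LRX1, PRP3 and MYB36, 3 of 8, were higher and 4 of 9 shoot markers lower in the same pair (root sums 2268 and 1267, shoot sums 12136 and 23190), and their part was not tested. In p5cs1-4, 5 of 20 passed, 4 higher and 1 lower, against 6.51% of all genes, 3.82% higher and 2.69% lower (4 and 0 with RPKM as deposited): XTH32 was 4.19-fold higher than in WT (2.75 to 6.69), XTH19 2.28-fold (1.57 to 3.42), XTH17 2.15-fold (1.79 to 2.61) and XTH31 2.09-fold (1.63 to 2.73), and XTH11 was lower. XTH11 had 13 reads in the p5cs1-4 control and 23 in the WT control, and only the latter passed the floor.

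XTH31 and XTH32, the hydrolase branch, thus passed the 2-fold threshold in the controls of both mutants and in labelled stress of p5cs1-4, and did not pass it in labelled release of either. The comparisons of both mutants in the controls share the same WT control library, which held 69 reads of XTH31 and 23 of XTH32. The 2 mutants are therefore not independent observations of a difference from WT there. Over the 3 treatments together the additive model called no member for aba2-1 or p5cs1-4 against WT, with 5 and 3 of 25 members at an unadjusted p under 0.05, beside 14.7% and 10.8% of all genes, and edgeR called 0% of all genes in both. DESeq2 called XTH20 and XTH33 in aba2-1, beside 2.71% of all genes, and XTH20 in p5cs1-4, beside 0.801%.

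**Figure D4:**
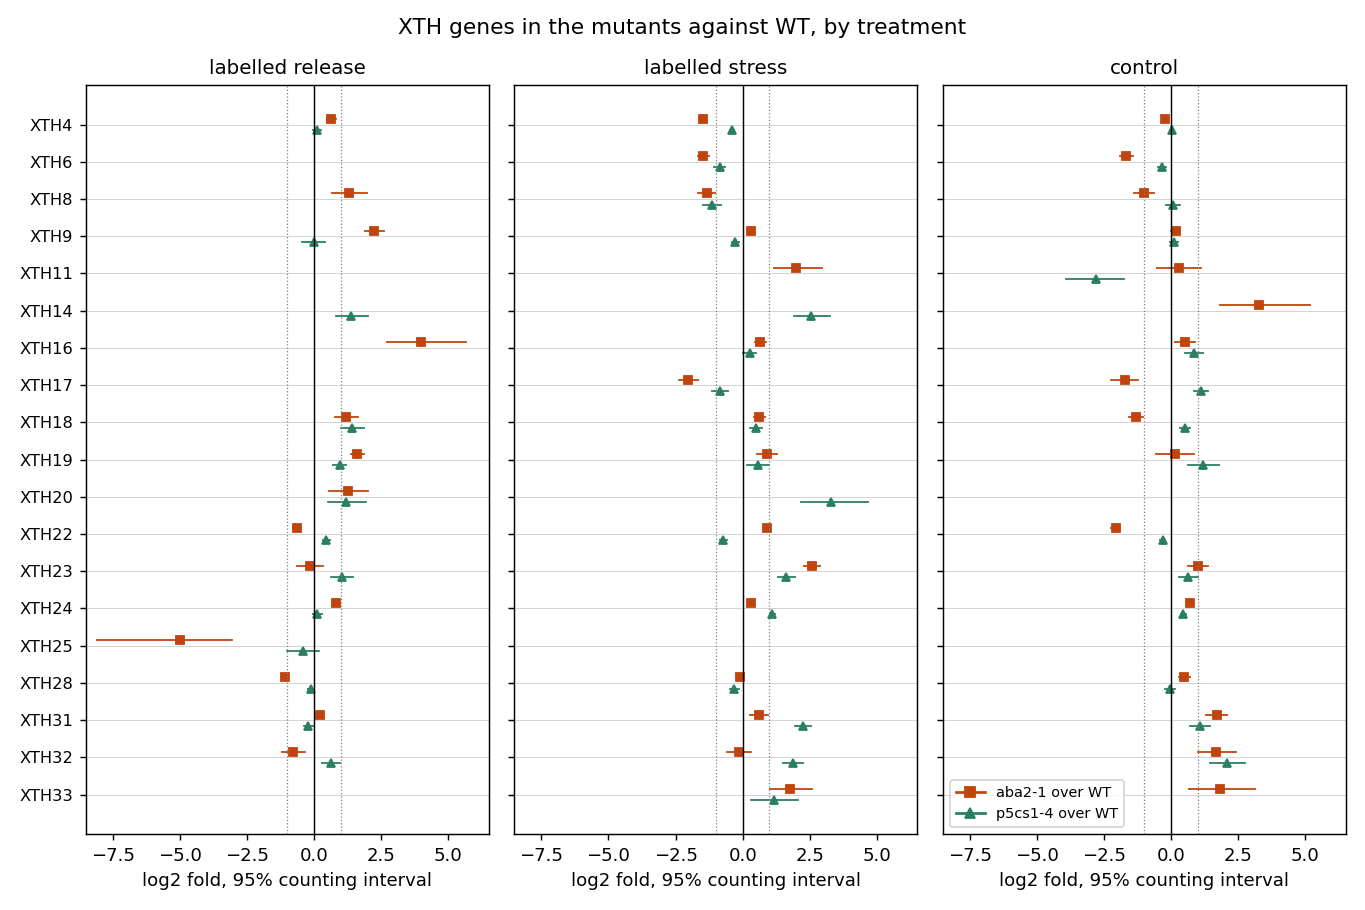
Log2 fold of aba2-1 and p5cs1-4 over WT in labelled release, labelled stress and control, with 95% counting intervals, for the 19 XTH genes at least 2-fold apart in any of these comparisons; genes under the floor or with no reads in either library of a pair have no point, and dotted lines mark 2-fold. XTH31 and XTH32 lie right of the upper line for both mutants in the control, where both are set against the same WT library. For aba2-1 in labelled release, XTH9 and XTH16 stand out on the higher side and XTH25, with 2 reads against 44 in WT, on the lower side.

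Of the 33 members, 10 lie directly beside another member, in 6 pairs with no gene between (TAIR10.1). On chromosome 4, XTH24 (14819192 to 14820595), XTH18 (14825757 to 14827211) and XTH19 (14828712 to 14830224) follow each other on the minus strand with gaps of 5161 and 1500 bases. XTH18 fell and XTH19 rose in labelled release against control, despite 87.6% coding identity and a shared strand. XTH24, at the other end, fell as XTH18 did. XTH23 and XTH14, 363 bases apart on the plus strand of chromosome 4, had their highest levels in different genotypes, 85.3 in aba2-1 labelled stress and 17.1 in p5cs1-4 labelled stress. On chromosome 5, XTH13, XTH25 and XTH22 follow each other on the minus strand with gaps of 686 and 565 bases, and their highest levels were 1.58, 4.77 and 278.

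**Figure D5:**
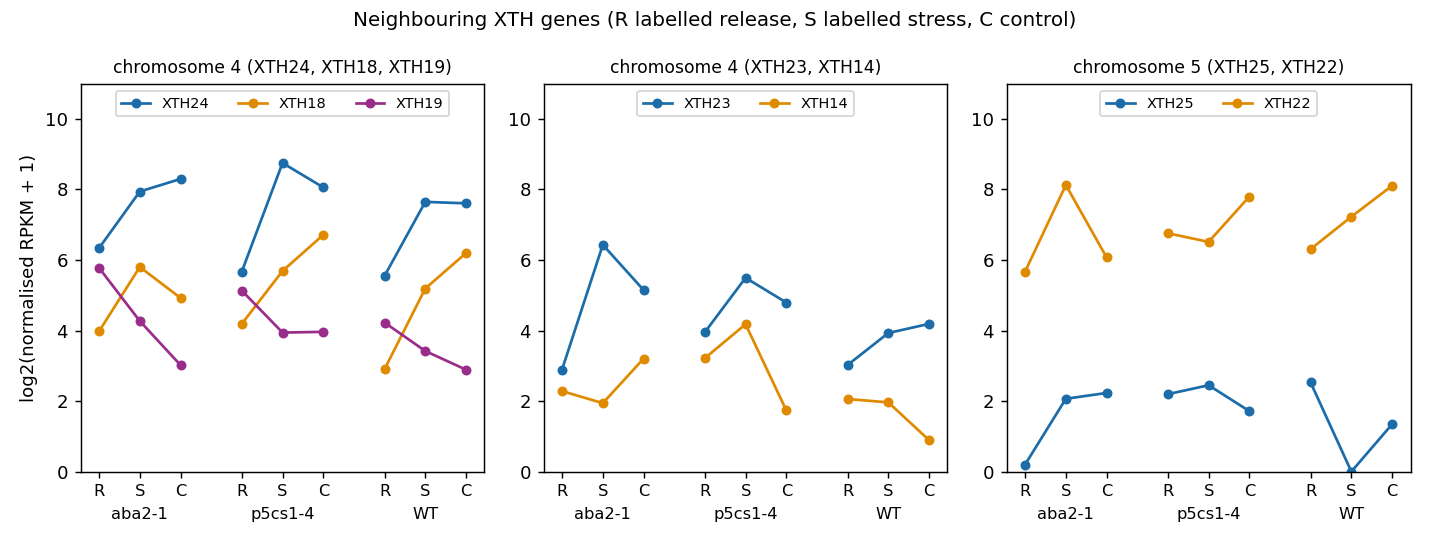
Levels of neighbouring XTH genes on a log2(normalised RPKM + 1) scale in the 9 libraries (R labelled release, S labelled stress, C control), with 1 line for each gene and genotype. In the left panel XTH19 is highest where XTH18 and XTH24 are lowest, in labelled release of each genotype.

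The 250 bases before the annotated start are shown for this neighbouring pair and for XTH6 and XTH7, the pair of group 1 with the largest falls in the additive model, as RefSeq gives them in TAIR10.1. Capitals mark matches, on either strand, to any of 6 motifs searched.
XTH6 (chr5:26298478-26298727, plus strand): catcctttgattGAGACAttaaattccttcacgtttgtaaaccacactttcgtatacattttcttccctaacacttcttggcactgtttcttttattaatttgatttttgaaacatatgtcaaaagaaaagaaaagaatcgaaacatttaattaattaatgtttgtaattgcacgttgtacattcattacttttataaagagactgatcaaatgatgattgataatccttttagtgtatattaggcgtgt
XTH7 (chr4:17777446-17777695, minus strand): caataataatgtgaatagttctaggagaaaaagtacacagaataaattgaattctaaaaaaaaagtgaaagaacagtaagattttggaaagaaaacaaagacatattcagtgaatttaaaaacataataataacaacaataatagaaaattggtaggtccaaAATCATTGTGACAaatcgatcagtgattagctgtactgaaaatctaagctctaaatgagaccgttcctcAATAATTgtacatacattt
XTH18 (chr4:14827212-14827461, minus strand): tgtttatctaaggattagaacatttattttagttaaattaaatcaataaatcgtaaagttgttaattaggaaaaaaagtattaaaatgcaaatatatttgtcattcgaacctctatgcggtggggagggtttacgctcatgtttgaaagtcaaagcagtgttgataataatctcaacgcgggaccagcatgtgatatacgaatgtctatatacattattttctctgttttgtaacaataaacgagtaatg
XTH19 (chr4:14830225-14830474, minus strand): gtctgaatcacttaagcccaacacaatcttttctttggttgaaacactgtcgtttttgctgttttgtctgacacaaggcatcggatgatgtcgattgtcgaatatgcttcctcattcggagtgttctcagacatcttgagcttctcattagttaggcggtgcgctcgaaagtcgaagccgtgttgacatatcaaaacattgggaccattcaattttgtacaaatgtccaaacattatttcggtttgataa
The motifs were ACGTGNC and CACGTG (ABA response element and G-box, which overlap in part), CCGAC (dehydration-responsive element core), CGTGNG (brassinosteroid response), TGTCNC (auxin response) and AATNATT (homeodomain-leucine zipper). Over 27443 promoters of the same length, ACGTGNC was present in 8.57%, CACGTG in 6.49%, CCGAC in 12.0%, CGTGNG in 12.5%, TGTCNC in 23.9% and AATNATT in 30.5%. Among the 33 members ACGTGNC and CACGTG were in none, CCGAC was in 1 (XTH20), CGTGNG in 4, TGTCNC in 6 and AATNATT in 11. Of the 10 members that fell against control in the additive model, TGTCNC was in 3 (XTH6, XTH7 and XTH33), AATNATT in 4 (XTH7, XTH8, XTH17 and XTH24) and CGTGNG in 1 (XTH8). XTH6 held TGTCNC at -238 to -233 and XTH7 at -81 to -76, next to AATNATT at -88 to -82, counted back from the start. None of the 6 was in the windows of XTH18 or XTH19, which matched at 50.2% of aligned columns, against 47.7% for XTH6 and XTH7. Aligned columns include gaps, only these pairs were aligned, and no value for unrelated promoters was computed to set beside them. A match or its absence describes these letters only.

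The other genes of the xyloglucan pathway were counted in the same way. Of 14 genes of xyloglucan synthesis, 12 passed the floor in labelled release over control. None passed the 2-fold threshold in aba2-1, against 10.2% of all genes. In p5cs1-4, 3 were lower (XXT1, CSLC4 and CSLC5), against 11.8% of all genes. In WT 4 were lower (XXT1, CSLC4, XXT5 and CSLC5) and FUT1, a fucosyltransferase, was higher, against 14% and 12.7% of all genes. XXT1, a xylosyltransferase that starts the side chains, had levels of 11.2 in labelled release and 17.4 in the control of aba2-1, 13.0 and 46.8 in p5cs1-4, and 8.63 and 47.8 in WT. CSLC4, the main synthase of the glucan backbone, had 23.9 and 21.7 in aba2-1, 19.3 and 63.7 in p5cs1-4, and 14.3 and 45.6 in WT. In the additive model 2 of 14 fell, XXT5 (log2 fold change -0.91, SE 0.19, adjusted p = 0.043) and CSLC5 (-0.85, SE 0.19, adjusted p = 0.049), and none rose. Of all genes, 3.94% fell and 1.79% rose in this model. Of 5 genes of xyloglucan breakdown, 1 fell in the model, the fucosidase gene AXY8 (log2 fold change -1.39, SE 0.21, adjusted p = 0.022), with levels of 23.5 and 45.5 in aba2-1, 19.6 and 54.5 in p5cs1-4 and 18.3 and 63.3 in WT. By the 2-fold threshold none of the 5 passed in aba2-1. In p5cs1-4, 2 were lower (AXY8 and BGAL10), against 11.8% of all genes, and AXY8 was lower in WT too.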

How the data were processed

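The deposited tables, 1 for each of the 9 libraries, give for each gene its length, an estimated read count, an RPKM value and a fraction of multi-mapping reads, per the file headers. The authors' estimated counts share reads that map to several places among genes, and 88.9% to 92.6% of the nonzero values lay within 1e-06 of a whole number. The deposited RPKM values are scaled by gene length and library total, and the deposited fraction runs from 0 to 1. CASAVA 1.6 and TAIR10 are named in the submitters' processing notes, without a role, and the aligner, counter and use of strand are not given in the sources used here. Libraries had 18 cycles of PCR without molecular identifiers, per the labels' protocols.

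Estimated counts were rounded and scaled with TMM factors, and levels divided by the deposited length. Pairs of libraries (15 comparisons) were described by the log2 ratio of CPM + 1, a floor of 5 CPM in either library and a 2-fold threshold, with exact 95% conditional intervals of the fold and a floor of 3 counts against 0. Intervals of the difference between the log2 folds of a mutant and of WT are normal approximations from the read counts. No p was computed for pairs. The additive model used edgeR 4.0.16 in R 4.3.3 (quasi-likelihood test on 19600 genes averaging 1 CPM or more, with 4 residual degrees of freedom), with any interaction in the residual. The SE given with an edgeR fold change is the size of the log2 fold change divided by the square root of its F statistic. DESeq2 1.42.0, limma 3.58.1 on log2 RPKM, other floors, scalings and pseudocounts, reads that map to 1 place only, and leaving out each genotype or treatment were alternatives. The design had named RPKM as a possible unit, and as counts were present the count route was used.

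Positions, coding sequences and promoters come from RefSeq's TAIR10.1, in which all 33 loci matched, and were aligned with Biopython 1.88. Identity is of coding sequences, since no protein table was used here. Members and lists were chosen with earlier results of these data known. All 33 members are accounted for, with full folds for up to 4 members of a group by the largest ratio against control, and other folds as levels or directions.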

Additional observations from a re-analysis of the deposited data

Results flagged for a closer look

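For 4 results the effect of a treatment passed the 2-fold threshold in opposite directions in different genotypes, on the log2 ratio of CPM + 1. XTH32 in labelled release over control stood at -1.18 in aba2-1 and 1.05 in WT. XTH14 in labelled stress over control stood at 2.47 in p5cs1-4 and -1.28 in aba2-1. XTH22 in labelled stress over control stood at 2.05 in aba2-1 and -1.29 in p5cs1-4. XTH31 in labelled stress over control stood at 1.03 in p5cs1-4 and -1.20 in aba2-1. Each group is 1 library, so none of these differences was tested.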

How the results depend on the processing

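No paired analysis was possible because each group is 1 library and so holds no replicates to pair, while the additive model carries genotype as a term beside treatment. Of the counts of members at least 2-fold apart, a floor of 20 CPM gave 8 in place of 14 for labelled release over control in aba2-1, 1 in place of 2 for labelled stress over control in WT, 3 in place of 8 and 0 in place of 2 for aba2-1 and p5cs1-4 over WT in labelled release, and 5 in place of 8 and 3 in place of 5 for the mutants over WT in the controls. For labelled stress over control in WT no floor gave 5 and RPKM as deposited 0. A pseudocount of 0.1 CPM gave 4 in place of 2 for p5cs1-4 over WT in labelled release. In the additive model DESeq2 called 2 and 1 members in place of 0 for aba2-1 and p5cs1-4 over WT, and 14 in place of 9 for labelled release over labelled stress. Leaving out each genotype in turn gave 0 to 15 members for labelled release over control (11 with all) and 0 to 13 for labelled release over labelled stress (9 with all), with 0 when WT or p5cs1-4 was left out, where no gene of the series was called either. The adjusted p of the 11 members then reached 0.388, while with all 9 libraries and any other tool, filter or scaling it stayed at or under 0.0398. RPKM as deposited moved the median of all genes by up to 0.194 on the log2 scale. No called fold changed its sign under the alternatives run. The balance of called members turned in aba2-1 over WT in labelled stress, with 3 higher and 4 lower by TMM scaling and the floor of 5 CPM, 5 and 4 with RPKM as deposited or reads that map to 1 place only, and 6 and 4 with no floor. Depth limits members such as XTH16 and XTH33, with 5 and 0 reads in WT labelled release.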
